A study of Mus musculus with 37 samples.

Results

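Reg genes encode small secreted proteins with a C-type lectin fold, and 5 of them were followed here in mouse jejunal organoids: Reg1, Reg3a, Reg3b, Reg3g and Reg4. The members were chosen by gene symbol, after Reg1 had been seen to be higher with vasoactive intestinal peptide (VIP) in one of the experiments. All 5 were present in each of the 3 count tables, among 27407, 20500 and 27547 genes, and 31533 symbols in all. VIP is a neuropeptide of enteric neurons that acts on receptors of the epithelium. The first experiment used whole organoids from proximal jejunal crypts of C57Bl6/J mice, with 100 nM VIP for 72 h in 4 mice (8 libraries) and no VIP in 3 of the same mice (5 libraries). The second used Lgr5-EGFP+ cells sorted from organoids of Lgr5-EGFP-IRES-CreERT2 reporter mice, with and without 100 nM VIP for 72 h (4 mice). The third used sorted Lgr5-EGFP+ cells of 4 further mice of the reporter strain in 4 groups each: untreated, 100 nM VIP for 48 h, irradiation with 6 Gy, and 6 Gy followed by 100 nM VIP for 48 h. Mice of all 3 experiments were 6 to 12 weeks old. All cultures grew in Matrigel with EGF, Noggin and R-Spondin-1, and such cultures are started from epithelium alone. The reporter marks cells with an active Lgr5 locus, the stem cells of the crypt base. Each culture of a treated group was compared with the culture of the same mouse in the reference group, where there was one. VIP-treated mouse 4 of the whole organoids had none, but counts in the group ranges and overlaps.

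As background, the Reg3 proteins are part of the antimicrobial defence of the small intestine. REG3G binds peptidoglycan and kills Gram-positive bacteria, and REG3B acts on Gram-negative bacteria. Both genes respond in vivo to microbial signals through MyD88 and to IL-22 through STAT3, and are expressed by enterocytes and Paneth cells. REG1 was described as a growth factor of pancreatic islets and is also made in the gut. REG4 marks enteroendocrine cells of the small intestine and the Paneth-like deep crypt secretory cells of the colon. EXTL3 has been proposed as a receptor for Reg proteins.

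In the GENCODE M21 annotation of GRCm38, all 5 are protein-coding genes. Reg4 lies alone on chromosome 3 (chr3:98222156-98236748, plus strand, 6 exons). The other 4 lie in one cluster on chromosome 6, Reg3b first (chr6:78370657-78373466, plus strand, 6 exons), then Reg3a (chr6:78380709-78383827, plus strand, 6 exons), Reg1 (chr6:78422711-78428667, plus strand, up to 7 exons) and Reg3g (chr6:78466269-78468872, minus strand, 6 exons). Reg3d and Reg2 lie between them. No stretch of 50 bases in the last 500 bases of any member's annotated transcripts occurred in a transcript of another gene. The promoters of the cluster are shown because its genes are neighbours with a shared origin and yet moved in different directions below. Each runs 5′ to 3′ on the gene's strand, from 250 bases before to 50 bases after the RefSeq start site (GRCm38.p6), at chr6:78425733-78426032 for Reg1, chr6:78380459-78380758 for Reg3a, chr6:78370635-78370934 for Reg3b and chr6:78468825-78469124 (minus strand) for Reg3g. For Reg1 the RefSeq start lies inside the longer GENCODE gene. Capitals mark matches to the motifs described after the sequences.
Reg1: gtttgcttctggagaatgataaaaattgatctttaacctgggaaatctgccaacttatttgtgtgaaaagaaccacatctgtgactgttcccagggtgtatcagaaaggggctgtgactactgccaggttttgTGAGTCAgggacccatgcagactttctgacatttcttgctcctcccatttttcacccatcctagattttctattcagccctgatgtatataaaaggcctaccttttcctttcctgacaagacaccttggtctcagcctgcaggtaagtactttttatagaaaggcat
Reg3a: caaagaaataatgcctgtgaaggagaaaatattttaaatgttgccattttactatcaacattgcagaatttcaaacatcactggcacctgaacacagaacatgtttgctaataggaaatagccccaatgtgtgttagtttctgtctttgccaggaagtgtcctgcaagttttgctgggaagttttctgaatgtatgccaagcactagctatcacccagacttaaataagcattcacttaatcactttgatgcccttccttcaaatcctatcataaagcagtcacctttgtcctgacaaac
Reg3b: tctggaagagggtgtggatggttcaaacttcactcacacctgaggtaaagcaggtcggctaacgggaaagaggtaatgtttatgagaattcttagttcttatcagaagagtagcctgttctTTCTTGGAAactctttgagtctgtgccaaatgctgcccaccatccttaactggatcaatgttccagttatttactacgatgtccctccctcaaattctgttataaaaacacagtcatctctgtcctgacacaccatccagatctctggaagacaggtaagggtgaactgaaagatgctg
Reg3g: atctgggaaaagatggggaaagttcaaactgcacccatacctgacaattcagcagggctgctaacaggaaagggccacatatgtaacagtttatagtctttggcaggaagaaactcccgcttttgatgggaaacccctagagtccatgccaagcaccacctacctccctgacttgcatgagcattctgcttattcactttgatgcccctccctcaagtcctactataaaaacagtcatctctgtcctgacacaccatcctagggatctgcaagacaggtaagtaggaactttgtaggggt
The motifs searched were palindromic, so that one pass covers both strands. They were TTCNNNGAA, bound by STAT factors, TGACGTCA, the cAMP response element bound by CREB, and TGANTCA, bound by AP-1. The Reg3b window held TTCTTGGAA, which starts at position -129 from the start site, and the Reg1 window held TGAGTCA at position -117, neither overlapping another match. The windows of Reg3a, Reg3g and Reg4 held none. Of 32851 promoter windows of the same length, 8.3% held TTCNNNGAA, 1.79% TGACGTCA and 7.81% TGANTCA. A match describes the letters only. By global alignment, Reg3b and Reg3g had the most alike windows of the 5 members, with 214 identical bases (71.3% of 300), where the other pairs had 172 to 196.

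Libraries held counts of unique molecular identifiers (UMIs), one per captured transcript 3′ end, so that levels of different genes can be compared without correcting for length. Summed per culture, whole organoids had 3722716 to 6330404 UMIs, cells sorted after 72 h had 575242 to 1104126 and cells of the irradiation experiment 1075715 to 1876729. Levels are given as CPM, the UMI count of a gene scaled to a common total of 1000000 UMIs per culture. One library stood apart from its partner. The second library labelled as VIP-treated mouse 3 of the whole organoids correlated with its partner library at r = 0.932 over 11165 genes, while the other 5 pairs had r of 0.981 to 0.988. In it the 5 Reg genes differed from the partner library by 2.65-fold (Reg4) to 4.14-fold (Reg1), and in the other pairs by at most 1.51-fold. All 5 Reg genes of this library lay within the range of the 5 untreated libraries of mice 1, 2 and 3. They lay outside that of the 6 VIP libraries of mice 1, 2 and 4. With its partner counted among the VIP libraries, its Reg3b (1370 CPM) lay inside their range of 717 to 4026 CPM. The other Reg genes stayed outside. Clca1, a goblet cell gene, was at 52.3 CPM in it and at 325 CPM in its partner, with 40.2 to 60.9 CPM in untreated libraries. Over the same 11165 genes it correlated at r of 0.953 to 0.982 with the untreated libraries and at 0.963 to 0.977 with the VIP libraries of the other mice, each higher than with its partner. Most of its Reg levels and its Clca1 level thus go against its label. Against untreated mouse 3 it held 0.319 times the Reg3b and 0.324 times the Reg3g. Xist, a transcript of female cells, was at 755 CPM in it, and at 266 CPM in its partner. Untreated mouse 3 had 344 CPM of Xist, VIP-treated mouse 4 had 536 and 647 CPM, and mice 1 and 2 had 8.40 to 16.5 CPM. Whether the label is right, for treatment or for mouse, was not tested. It is kept in the values of VIP-treated mouse 3 unless stated, and the whole-organoid calls are given with and without it.

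The sorted cells carried the label of stem cells, but also transcripts of other lineages. Lgr5 itself was at 12.2 to 56.2 CPM in sorted cultures and 42.4 to 116 CPM in whole organoids, while Olfm4, another stem cell gene, was at 1653 to 5846 and 1156 to 3495 CPM (tables that were processed separately). Lyz1 of Paneth cells was present in every sorted culture at 440 to 2907 CPM. Immune and mesenchymal markers each summed to at most 9.06 CPM in any culture, and Ptprc, which encodes the leukocyte protein CD45, had at most 4 UMIs where it was listed. In the irradiation experiment Cdkn1a, a p53 target, was at 161 to 355 CPM in non-irradiated and 585 to 703 CPM in irradiated cultures, in the direction of the labels.

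In untreated whole organoids Reg3b was the most abundant member, with 1319, 1378 and 4298 CPM in mice 1, 2 and 3. Reg3g followed with 404, 418 and 1371 CPM. In both genes mouse 3 stood above the other mice, and within each mouse Reg3b exceeded Reg3g. Reg3a (258 to 307 CPM), Reg4 (235 to 324 CPM) and Reg1 (105 to 372 CPM) overlapped in their ranges, so that no order could be given among them. In untreated sorted cells the order was another one. Reg4 led with 492 to 664 CPM in the irradiation experiment and 114 to 263 CPM after 72 h. Reg3g came next with 68.8 to 82.8 and 45.1 to 87.7 CPM. Reg3b was at 16.7 to 28.3 and 13.2 to 66.8 CPM, and Reg3a at 2.78 to 8.79 and 3.37 to 39.7 CPM. Reg1 was the lowest in the irradiation experiment, at 1.23 to 6.28 CPM, which rests on 2 to 10 UMIs per culture. The ranges of Reg1 and Reg3a overlapped in both sorted experiments, and that of Reg3b overlapped those of Reg1, Reg3a and Reg3g after 72 h but not in the irradiation experiment. Reg2 had 0 UMIs in all untreated whole organoids and 16 in all VIP-treated ones together, and Reg3d had 23 and 20.

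The first comparison asked how VIP changes the Reg genes in whole organoids. Reg1 and Reg4 rose and Reg3a and Reg3b fell with VIP, while Reg3g did not pass the test. Reg1 was at 372, 257 and 105 CPM in untreated mice 1, 2 and 3, and at 901, 556, 510 and 453 CPM in VIP-treated mice 1 to 4. Every VIP-treated culture lay above every untreated one, with 2.16-fold to 4.84-fold higher levels within the 3 mice that had both. The fitted log2 fold change was 1.53 (SE 0.16), at an adjusted p of 5.08e-05 by the quasi-likelihood test of edgeR with the mouse as block. In bulk samples a change in the number of cells that express a gene and a change in RNA per cell cannot be told apart.

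Reg3a moved the other way. Untreated cultures held 270, 258 and 307 CPM and VIP-treated cultures 118, 102, 160 and 136 CPM. The groups did not overlap, and the fitted change was -1.16 (SE 0.095, adjusted p = 6.77e-06 in edgeR), or 0.45 times the untreated level. Reg3b fell within each of the 3 mice, from 1319 to 1087, 1378 to 803 and 4298 to 2999 CPM, with 952 CPM in VIP-treated mouse 4. Mouse 3 was high in both groups, which overlapped, and the fitted change was -0.53 (SE 0.099, adjusted p = 0.00595 in edgeR). Reg3g, at the other end of the cluster, was at 404, 418 and 1371 CPM without and 544, 514, 1174 and 602 CPM with VIP. It was higher in mice 1 and 2 and lower in mouse 3, with a fitted change of 0.16 (SE 0.12, adjusted p = 0.594 in edgeR). The lower value of mouse 3 came from the library that stood apart, at 0.324 times the untreated Reg3g, where its partner held 1.19 times. For Reg3b in mouse 3 the ratios were 0.319 in that library and 0.937 in its partner. Reg4 was at 235, 271 and 324 CPM without and 374, 336, 513 and 468 CPM with VIP. Here the groups did not overlap, and the fitted change was 0.54 (SE 0.095, adjusted p = 0.00391 in edgeR). In the same fit 4.82% of 12727 genes passed the test (3.72% higher and 1.10% lower), beside 4 of the 5 Reg genes, 2 higher and 2 lower. The groups did not overlap in 10.8% of the genes, and in 3 of the 5 Reg genes. The median log2 fold change was 0.16 over the 5 Reg genes and -0.0041 over all genes.

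**Figure D1:**
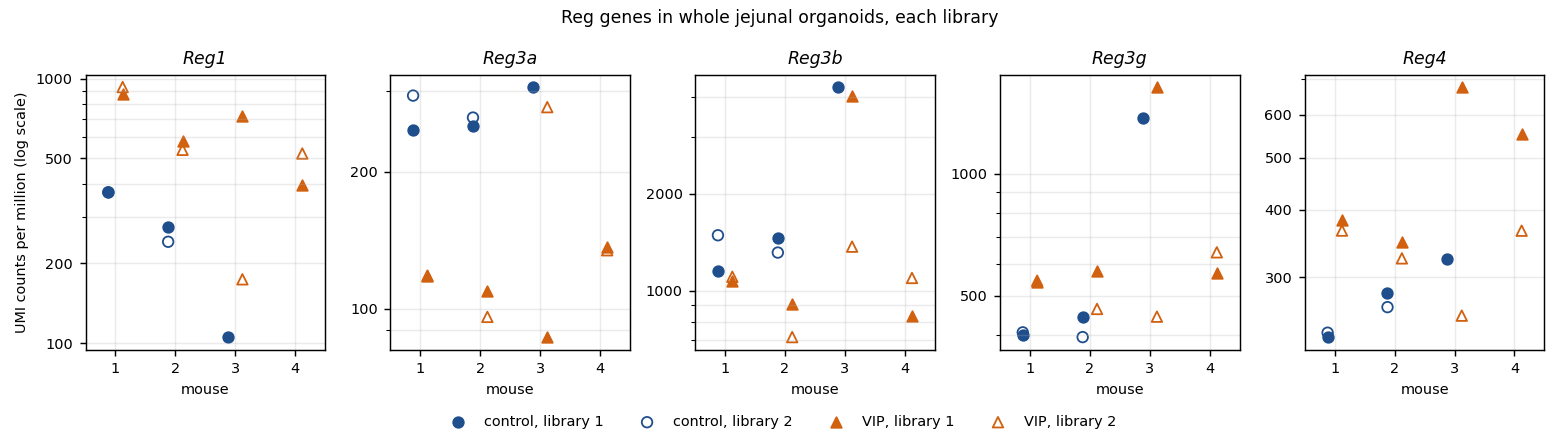
Levels of the 5 Reg genes in each library of whole organoids, in CPM on a log scale, by mouse. Circles are untreated and triangles VIP-treated cultures, filled for the first and open for the second technical replicate library. The open triangle of mouse 3 is the library that stood apart, at 174 CPM for Reg1 where its partner had 722 CPM.

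Without the second library of VIP-treated mouse 3, all 5 Reg genes passed the test in edgeR, beside 9.94% of all genes (6.46% higher and 3.48% lower). The Reg levels were among the values by which that library stood apart, so these calls are not independent of leaving it out. VIP-treated mouse 3 then held 722 CPM of Reg1, 6.85 times its untreated culture, and 86.8 CPM of Reg3a, 0.283 times. The log2 fold changes were 1.67 for Reg1 (adjusted p = 6.95e-04), -1.43 for Reg3a (adjusted p = 9.89e-06) and 0.68 for Reg4 (adjusted p = 0.00211). Reg3b was at -0.38 (adjusted p = 0.0420) and Reg3g, now past the threshold, at 0.33 (adjusted p = 0.0115). With this library kept and its partner left out, no member passed, where 0 of all 12748 genes passed. Reg3g then turned to -0.29 (adjusted p = 0.950 in edgeR). Without the mouse as a block only Reg3a passed (adjusted p = 0.0193 in edgeR), among 99 of 12727 genes. Some calls also rested on single mice. Without mouse 1 Reg4 had an adjusted p of 0.0967 in edgeR, where 377 of 12824 genes passed. Without mouse 2 Reg3b had one of 0.0501, where 363 of 12781 genes passed. Without mouse 3 Reg3g passed (0.38, adjusted p = 2.21e-04 in edgeR), among 1668 of 12993 genes. Only mice 1 and 2 then had both cultures, so that p says little about the spread between mice.

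The signalling routes known to act on Reg3 genes were read from gene lists, in a fit where 4.82% of all genes passed. None of 8 tested receptor, kinase and STAT genes of IL-22 and gp130 signalling passed the test, none of 10 genes of Toll-like receptor, IL-17 and NF-kB input, and not Extl3 (7.66 to 11.8 CPM). Of 9 STAT3 feedback and target genes, 2 rose, Fut2, which encodes a fucosyltransferase of the epithelial surface, by 1.64 (SE 0.26) and Junb, an AP-1 subunit, by 0.63 (SE 0.096). These counts were the same without the second library of VIP-treated mouse 3. Of 13 other secreted host defence genes 5 rose, among them Wfdc2, a protease inhibitor (2.66, SE 0.19), and Zg16, a mucus lectin (1.67, SE 0.10). Without that library 7 rose and 1 fell, Pigr, the receptor that carries immunoglobulin A across the epithelium (-0.29, SE 0.083). Goblet cell markers rose in 8 of 11 genes (9 without the library), with Clca1 at 2.08 (SE 0.099), and their summed level was 6013 to 7671 CPM without and 8779 to 10550 CPM with VIP. Of 13 Paneth cell markers 1 rose, Pnliprp2 (0.62, SE 0.11), and without the library 3 rose, among them Mmp7 (0.62, SE 0.088) and Lyz1 (0.32, SE 0.076). The summed level of the Paneth list was 13784 to 24421 without VIP and 15129 to 23535 CPM with VIP. Enterocyte markers went both ways, with 2 of 14 higher, Alpi and Krt20, and 2 lower, among them Fabp1 (-0.49, SE 0.091), and a summed level of 17374 to 19246 and 14294 to 17808 CPM. Without the library 3 were higher and 3 lower. The part of these cell type changes in the Reg values was not tested.

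The second comparison concerned sorted Lgr5-EGFP+ cells after 72 h with VIP. Its Reg1 result was known when the genes were chosen, so the values are a description without a test. Reg1 was at 5.06, 5.78, 8.22 and 20.7 CPM in untreated mice 1 to 4 and at 17.2, 17.4, 23.8 and 173 CPM with VIP. It was higher in each of the 4 mice, by 2.90-fold to 8.35-fold, while mouse 4 was highest in both groups and its untreated level overlapped the VIP-treated range. The counts behind these values were 3 to 13 UMIs without and 10 to 109 UMIs with VIP. The fitted log2 fold change was 2.28 (SE 0.34), and 1.56 to 2.52 when each mouse was left out in turn. Reg4 was at 236, 219, 263 and 114 CPM without and 380, 426, 359 and 174 CPM with VIP. It was also higher in each of the 4 mice, with a fitted change of 0.65 (SE 0.14), and here mouse 4 was lowest in both groups.

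The Reg3 genes varied more between mice. Reg3a was at 3.37, 32.4, 8.22 and 39.7 CPM without and 11.8, 12.2, 59.6 and 79.2 CPM with VIP, higher in 3 mice and lower in mouse 2 (0.82, SE 0.37). Reg3b was at 18.6, 24.3, 13.2 and 66.8 CPM without and 60.7, 15.6, 22.1 and 131 CPM with VIP, with the same mice higher and lower (0.80, SE 0.28). Reg3g was higher in 2 mice and lower in 2, between 45.1 and 98.2 CPM (0.21, SE 0.20). In this fit 0.0885% of 6778 genes passed the threshold (0.0590% higher and 0.0295% lower). Of 9 tested goblet cell markers none had a log2 fold change above 0 and Fcgbp fell (-0.97, SE 0.17), while no gene of the Paneth, enterocyte or enteroendocrine lists passed.

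**Figure D2:**
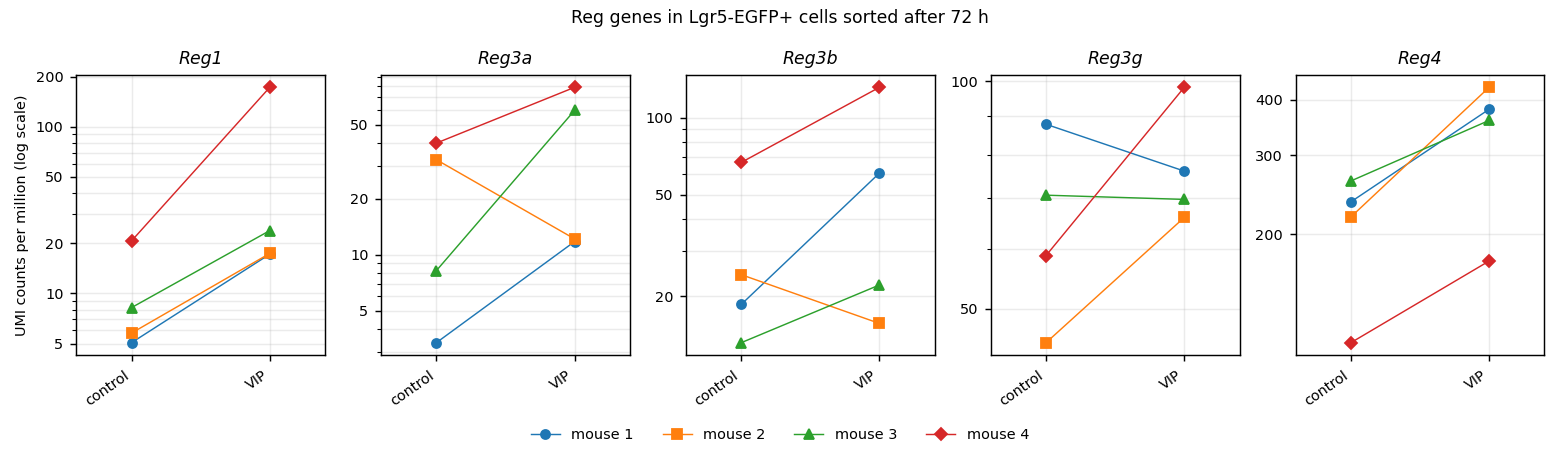
Levels of the 5 Reg genes in Lgr5-EGFP+ cells sorted after 72 h, in CPM on a log scale. Lines join the untreated and VIP-treated culture of each of 4 mice. All 4 lines rise for Reg1 and Reg4, and mouse 4 reaches 173 CPM of Reg1.

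The third experiment asked how irradiation changes sorted cells, and whether VIP given afterwards alters that change. Irradiation of untreated cells raised Reg4 and Reg3b. Reg4 was at 664, 607, 592 and 492 CPM in non-irradiated mice 1 to 4 and at 862, 1252, 2229 and 801 CPM after 6 Gy. Every irradiated culture lay above every non-irradiated one, although the size of the rise differed from 1.30-fold in mouse 1 to 3.77-fold in mouse 3. The fitted change was 1.03 on the log2 scale (SE 0.15, adjusted p = 9.81e-05 in edgeR). Reg3b was at 28.3, 19.7, 16.7 and 26.9 CPM before and 30.0, 43.8, 52.1 and 84.7 CPM after irradiation, again without overlap, as in 8.42% of all genes tested. Its fitted change was 1.17 (SE 0.29, adjusted p = 0.0147 in edgeR), and it missed the threshold without mouse 2 (0.0689), without mouse 4 (0.135), without the block (0.0520) and in DESeq2 (adjusted p = 0.206).

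Reg3a, at 8.79, 5.55, 2.78 and 6.55 CPM before and 12.9, 15.0, 7.44 and 17.8 CPM after 6 Gy, was higher in all 4 mice but did not pass the test (1.13, SE 0.35, adjusted p = 0.0694 in edgeR). It passed when all genes with any count were kept (adjusted p = 0.0180 in edgeR), among 567 of 27547 genes, a setting whose limit is given below. It also passed in a fit of the 8 samples of this comparison (adjusted p = 0.0415 in edgeR), among 335 of 9361 genes. These levels rest on 5 to 27 UMIs per culture. Reg3g was at 68.8 to 82.8 CPM before and 64.8 to 111 CPM after, higher in 2 mice and lower in 2 (0.19, SE 0.14, adjusted p = 0.536 in edgeR). Reg1, with 2 to 10 UMIs per culture, was higher in 3 mice and lower in mouse 1 (0.68, SE 0.53, adjusted p = 0.591 in edgeR). In the same fit 4.46% of 9976 genes passed (2.87% higher and 1.59% lower), beside 2 of 5 Reg genes, both higher.

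With VIP in both groups, irradiation raised Reg4, Reg3b and Reg3g. Reg4 was at 478, 546, 683 and 602 CPM without and 777, 1078, 1484 and 720 CPM with irradiation (0.75, SE 0.15, adjusted p = 0.00197 in edgeR). Reg3b was at 4.51, 11.2, 14.1 and 12.8 CPM without and 20.2, 19.2, 64.1 and 21.6 CPM with irradiation (1.52, SE 0.35, adjusted p = 0.00687 in edgeR). Reg3g was at 66.1, 53.0, 64.6 and 55.4 CPM without and 79.4, 83.9, 104 and 69.0 CPM with irradiation (0.48, SE 0.14, adjusted p = 0.0350 in edgeR). The groups did not overlap in these 3 genes, nor in 12.7% of all genes tested. The Reg3b call was lost without mouse 3 (adjusted p = 0.0703 in edgeR), and the Reg3g call without mouse 2, 3 or 4 (0.121, 0.171 and 0.0635), without the block (0.0555) and in DESeq2 (adjusted p = 0.0717). Reg1 was at 2.25, 1.49, 4.48 and 6.09 CPM without and 6.39, 6.39, 10.6 and 3.77 CPM with irradiation (0.83, SE 0.46, adjusted p = 0.306 in edgeR). Reg3a was at 3.76, 11.2, 1.92 and 1.22 CPM without and 4.80, 8.79, 2.35 and 4.85 CPM with irradiation (0.23, SE 0.45, adjusted p = 0.832 in edgeR). Among all genes 7.78% passed (4.32% higher and 3.46% lower), beside 3 of 5 Reg genes, all 3 higher.

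**Figure D3:**
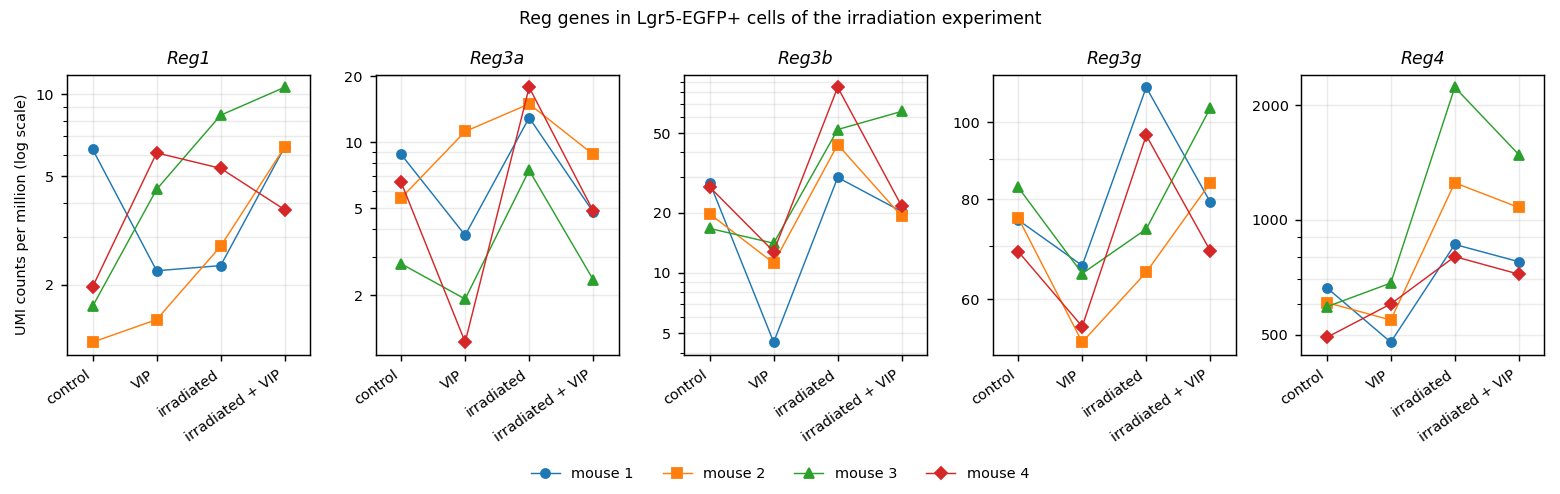
Levels of the 5 Reg genes in Lgr5-EGFP+ cells of the irradiation experiment, in CPM on a log scale. Each line follows one of 4 mice over the untreated, VIP-treated, irradiated, and irradiated and VIP-treated cultures. The irradiated cultures lie above the non-irradiated ones for Reg4, at 720 to 2229 against 478 to 683 CPM.

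Genes of differentiated cells moved with irradiation in the same cells. In untreated cells, Paneth cell markers rose in 10 of 13 tested genes, among them Defa17, an alpha-defensin (1.40, SE 0.18), and Ang4, an antimicrobial ribonuclease (1.32, SE 0.18). The summed Paneth list went from 10574 to 15870 CPM without to 15798 to 28744 CPM with irradiation. Enteroendocrine markers rose in 8 of 13 genes, goblet cell markers in 7 of 11 and enterocyte markers in 6 of 13, led by Chgb (1.01, SE 0.12), Muc2 (1.27, SE 0.19) and Rbp2 (1.31, SE 0.23). Stem cell markers fell in 3 of 11 genes, with Olfm4 at -0.64 (SE 0.068). With VIP in both groups, the counts of genes that rose were 11 of 13 for Paneth, 11 of 13 for enteroendocrine, 5 of 11 for goblet and 3 of 13 for enterocyte markers, and again 3 of 11 stem cell markers fell. The median log2 fold change of the 5 Reg genes was 1.03 in untreated and 0.75 in VIP-treated cells. The Paneth list had 0.87 and 0.82, the enterocyte list 0.87 and 0.74 and the enteroendocrine list 0.86 and 1.11. Goblet cell markers had 0.58 and 0.56, and all genes -0.0041 and 0.0015. The part of this shift between cell types in the Reg values was not tested. Among IL-22 and gp130 signalling genes none of 7 passed in either comparison. Of 8 STAT3 target genes Junb rose in both, by 0.35 (SE 0.086) and 0.36 (SE 0.087), and 1 other fell in VIP-treated cells. Among 8 genes of Toll-like receptor, IL-17 and NF-kB input, 0 passed in untreated cells and 1 rose in VIP-treated cells.

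VIP itself left no Reg gene past the threshold in this experiment, in mice and at a time point other than those of the 72 h experiment. In non-irradiated cells 0.742% of 9976 genes passed (0.481% higher and 0.261% lower). Reg3b and Reg3g were lower with VIP in each of the 4 mice and did not overlap between groups, with Reg3b at 16.7 to 28.3 against 4.51 to 14.1 CPM and Reg3g at 68.8 to 82.8 against 53.0 to 66.1 CPM. Of all genes tested 6.71% had groups that did not overlap. The fitted changes were -1.13 (SE 0.37, adjusted p = 0.173 in edgeR) and -0.35 (SE 0.14, adjusted p = 0.295 in edgeR). In a fit of the 8 samples of this comparison alone, Reg3b passed at an adjusted p of 0.0378 in edgeR, among 184 of 9147 genes. Reg1, 6.28, 1.23, 1.67 and 1.97 CPM without and 2.25, 1.49, 4.48 and 6.09 CPM with VIP, was higher in 3 mice and lower in mouse 1 (0.40, SE 0.54, adjusted p = 0.845 in edgeR). Reg3a was lower in 3 mice and higher in mouse 2 (-0.46, SE 0.43, adjusted p = 0.745 in edgeR), and Reg4 was higher in 2 and lower in 2 (-0.05, SE 0.15, adjusted p = 0.946 in edgeR).

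In irradiated cells 0.221% of genes passed with VIP (0.130% higher and 0.0902% lower). Reg3a was lower in each of the 4 mice, at 12.9, 15.0, 7.44 and 17.8 CPM without and 4.80, 8.79, 2.35 and 4.85 CPM with VIP, with a fitted change of -1.37 (SE 0.36, adjusted p = 0.162 in edgeR). The groups overlapped in mouse 3 without and mouse 2 with VIP. Reg4 was also lower in each mouse, at 862, 1252, 2229 and 801 CPM without and 777, 1078, 1484 and 720 CPM with VIP (-0.33, SE 0.15, adjusted p = 0.796 in edgeR). Reg3b was lower in 3 mice and higher in mouse 3 (-0.78, SE 0.27, adjusted p = 0.567 in edgeR). Reg1 was higher in 3 mice (0.55, SE 0.45, adjusted p = 0.964 in edgeR) and Reg3g went up in 2 and down in 2 (-0.07, SE 0.13, adjusted p = 0.985 in edgeR). When all genes with any count were kept in the fit, Reg3a, Reg3b and Reg4 passed in irradiated cells (adjusted p = 0.00406, 0.00166 and 0.00101 in edgeR). Reg3b passed in non-irradiated cells (adjusted p = 4.16e-04 in edgeR). In that setting 110 of 27547 genes passed in irradiated and 182 in non-irradiated cells. The same setting gave Reg1 in whole organoids an adjusted p of 5.83e-63, against 5.08e-05 in the main fit (edgeR). Such values are too small for the number of mice, so calls of this setting are weak. In the main fit, 2 of 13 tested enterocyte markers fell with VIP in each setting. Fabp1 and Fabp2, fatty acid binding proteins, fell by 0.95 (SE 0.19) and 0.41 (SE 0.084) in non-irradiated cells. Fabp1 and Rbp2, a retinol binding protein, fell by 1.37 (SE 0.18) and 1.60 (SE 0.24) in irradiated cells. Of 13 Paneth cell markers none passed, and 0 had a log2 fold change above 0 in either setting. Of 11 goblet cell markers, 0 passed in non-irradiated cells and 1 fell in irradiated cells. Olfm4 rose by 0.57 (SE 0.067) and 0.35 (SE 0.068).

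The interaction of VIP and irradiation was not called for any of the 5 Reg genes. The differences between the VIP effects with and without irradiation were 0.15 (SE 0.74) for Reg1, -0.90 (SE 0.58) for Reg3a, 0.35 (SE 0.47) for Reg3b, 0.28 (SE 0.20) for Reg3g and -0.28 (SE 0.21) for Reg4, with adjusted p of 0.880 to 0.991 in edgeR. Of 9976 genes 0 passed in edgeR (0%), with 634 at an unadjusted p under 0.05, and DESeq2 called 0 as well. These standard errors leave room for changes of the size seen in the single comparisons. The comparisons of this experiment share groups, so their values for a gene are not independent of each other. Whether the VIP effect differs between whole organoids and sorted cells was not tested.

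**Figure D4:**
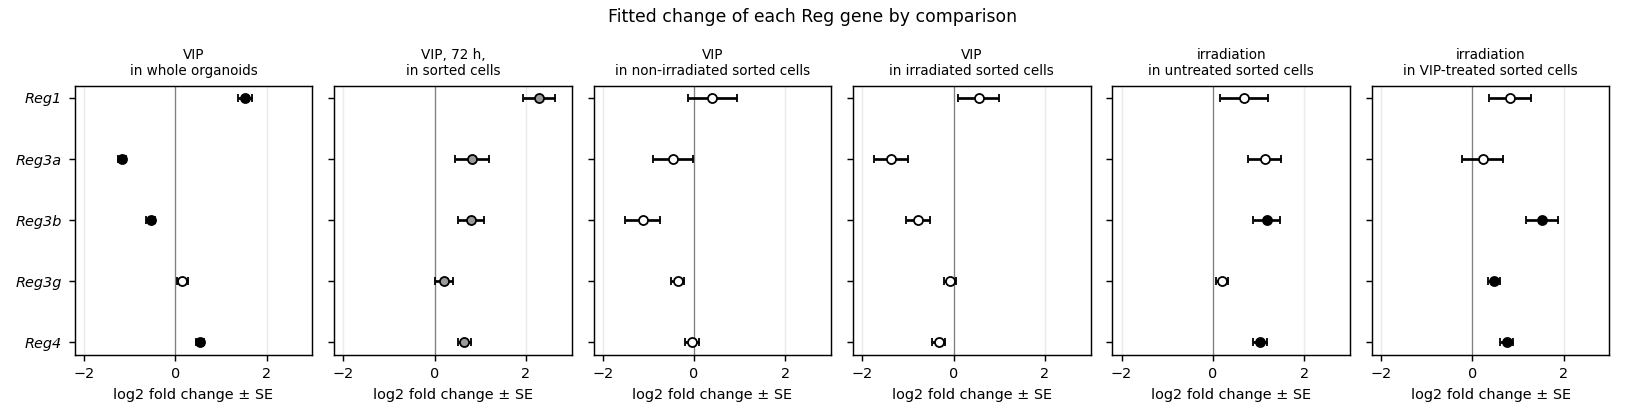
Fitted log2 fold change with its standard error for each Reg gene in the 6 comparisons of treated with reference groups. Filled points passed an adjusted p of 0.05, open points did not, and grey points were not tested. With VIP, Reg1 lies at 1.53 in whole organoids, and Reg3a at -1.16 there and at -1.37 in irradiated sorted cells.

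Across all 31 cultures, with levels centred within each experiment, the Reg genes did not move as one group. Reg3b correlated with Reg3g at Pearson's r = 0.56 and with Reg3a at 0.52, and the other pairs had r of -0.10 to 0.35. The points share mice and treatment groups, and the values are descriptions. Over 6730 genes, Reg3a was most like Rbp2 (r = 0.86), Fabp1 (0.85) and Spink1 (0.84), of which Rbp2 and Fabp1 are enterocyte genes. Within experiments its r with Rbp2 was 0.57 in whole organoids (7 cultures), 0.95 after 72 h (8) and 0.87 in the irradiation experiment (16). Reg3b was most like Siva1 (0.75), Gsta1 (0.73) and also Rbp2 (0.72). Reg4 was most like the alpha-defensin genes Defa3 (0.80), Defa30 (0.77) and Defa38 (0.77), which are made by Paneth cells and are near-identical copies whose counts may be split between them. Its r with Defa3 was 0.79, 0.94 and 0.74 in the 3 experiments. For Reg3g, the leading genes Tmed9, Laptm4a and Lsm1 (0.78, 0.78 and 0.76) held within whole organoids (0.93 to 0.98) but only at 0.10 to 0.37 in the irradiation experiment, and without the 2 cultures farthest from the median they had r of 0.56 to 0.63. Reg1 had the weakest likeness over all cultures, with H1f2 at 0.68, Lgals3 at 0.64 and Anxa2 at 0.63. With these genes its r was 0.81 to 0.84 in whole organoids and 0.57 to 0.79 after 72 h. In the irradiation experiment, where Reg1 had at most 18 UMIs per culture, r was 0.32 to 0.66. Spearman's rho was 0.81 for Reg3a with Rbp2 and 0.82 for Reg4 with Defa3, and without VIP-treated mouse 3 of the whole organoids r was 0.86 and 0.79.

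**Figure D5:**
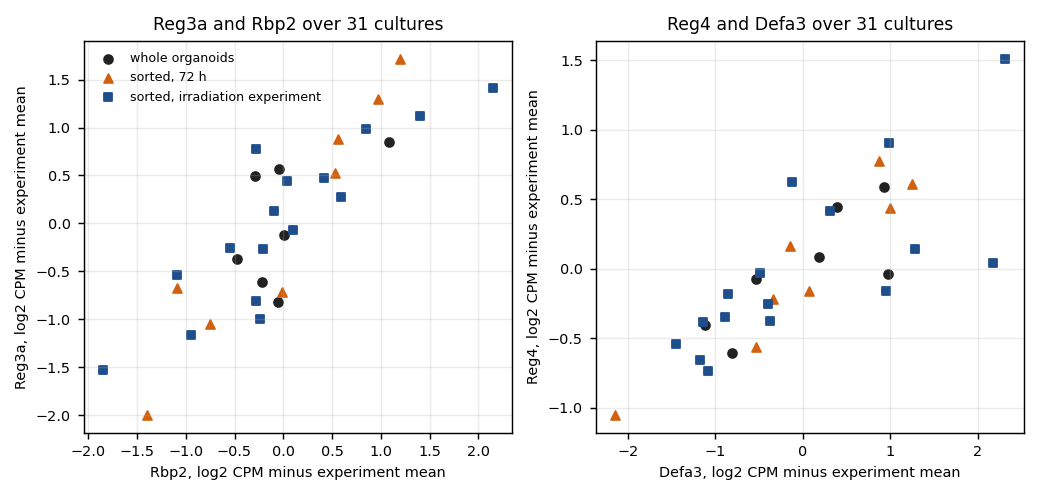
Reg3a against Rbp2 and Reg4 against Defa3 over 31 cultures, as log2 CPM minus the mean of the experiment, with one symbol per experiment. Points rise together in both panels, with r = 0.86 and 0.80.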

How the data were processed

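RNA from 31 organoid cultures (37 libraries) was captured by oligo-dT primers with sample barcodes and UMIs. The deposited values are whole UMI counts of each gene in each library, which the authors made with the Drop-seq pipeline on GRCm38 with GENCODE M25. No normalization had been applied, and a strand setting is not given in the sources used here. All 37 columns could be assigned to a sample.

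Technical replicate libraries were summed per culture. Counts were fitted in R 4.3.3 with edgeR 4.0.16: TMM factors, filterByExpr by group (minimum count 10), quasi-likelihood tests with the mouse as block, and Benjamini-Hochberg adjustment over all genes tested at a threshold of 0.05. The irradiation experiment was fitted as 1 model of 4 groups. The SE is the absolute log2 fold change divided by the square root of the F statistic. VIP-treated mouse 4 of the whole organoids has no untreated culture analysed here and enters the fit without bearing on the fold change. The pairing comes from the mouse in the labels. As a check, deviations from group means correlated at r of 0.27 to 0.63 within mice in whole organoids, 0.03 to 0.21 after 72 h and -0.07 to 0.16 in the irradiation experiment, against -0.54 to 0.33, -0.14 to 0.15 and -0.20 to 0.20 between mice.

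The 5 members, the gene lists, tests and alternatives were chosen with earlier results of these data known, so the p-values are not independent evidence. All 5 members passed the filter on low counts in every experiment. In cells sorted after 72 h, Reg1 passed it through the VIP-treated cultures, with 10 to 109 UMIs against 3 to 13 in untreated ones. Other genes are named where they are among the 3 called genes with the smallest p of a list, or among the 3 most like a member. Clca1, Xist, Lgr5, Olfm4, Lyz1, Ptprc and Cdkn1a were used as label checks. Likeness used log2 CPM with a prior count of 2. The alternatives were RLE factors, library size alone, all genes with any count, no block, DESeq2 1.42.0, leaving out each mouse, single technical libraries and only the samples of a comparison. The scripts were tested on simulated data.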

Additional observations from a re-analysis of the deposited data

Results flagged for a closer look

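Among 35 groups of 4 cultures by gene, 5 held a culture whose distance to the rest was large against the group's range, where chance gives about 1 in 20. Reg1 was at 173 CPM in VIP-treated mouse 4 of the cells sorted after 72 h, while the other 3 mice were at 17.2 to 23.8 CPM; without this mouse the log2 fold change was 1.56. Reg1 was at 6.28 CPM (10 UMIs) in untreated, non-irradiated mouse 1, with 2 or 3 UMIs in the other mice, and without mouse 1 irradiation of untreated cells had a log2 fold change of 1.70. In whole organoids VIP-treated mouse 3 was at 2999 CPM of Reg3b and 1174 CPM of Reg3g, above the other 3 cultures, and the untreated culture of this mouse was high in both genes too. Reg3b was at 64.1 CPM in irradiated and VIP-treated mouse 3, with 19.2 to 21.6 CPM in the others.

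The fitted values of Reg4 with VIP lay on opposite sides of 0 in different settings. Reg4 was higher in all 3 paired mice of the whole organoids and all 4 mice of the cells sorted after 72 h, and lower in all 4 mice of the irradiated cells, where it did not pass the test (-0.33, adjusted p = 0.796 in edgeR). The changes were 0.54 in whole organoids (adjusted p = 0.00391 in edgeR) and 0.65 after 72 h (no test). In non-irradiated cells Reg4 was higher in 2 mice and lower in 2 (-0.05, adjusted p = 0.946 in edgeR). The log2 fold changes of whole organoids and of cells after 72 h differed from that of irradiated cells by 0.87 and by 0.98. These differences were not tested, and the settings also differ in time and in mice.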

How the results depend on the processing

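Over 344 alternative values of single Reg genes, 304 kept their direction and side of the threshold (after 72 h in sorted cells, which had no test, moved by less than 1 SD of the mice), 20 lost and 10 gained a call, and 10 changed sign; all 40 mean levels moved by less than 1 SD with TMM-scaled CPM. In whole organoids the number of called Reg genes fell from 4 to 1 without the replicate block (samples not paired by mouse). There 99 of 12727 genes passed and Reg3g turned to -0.079. The number fell to 0 without the first library of VIP-treated mouse 3, an alternative chosen after seeing the data. There 0 of all 12748 genes passed and Reg3g turned to -0.29. For VIP in sorted cells, the number went from 0 to 1 (non-irradiated) and 3 (irradiated) with all genes with any count kept. In that setting 182 and 110 of 27547 genes passed, and its p-values are too small for the number of mice. With only the 8 samples of the comparison, the number went to 1 in non-irradiated cells, where 184 of 9147 genes passed. The filter of that fit left 3 of the 5 genes. For irradiation of untreated cells, the number went from 2 to 1 without the replicate block and in DESeq2, where 322 and 281 of 9976 genes passed. It went to 3 with all genes with any count and with only the 8 samples of the comparison. There 567 of 27547 and 335 of 9361 genes passed. Leaving out each mouse gave 3 to 5 called genes for VIP in whole organoids, 1 to 2 for irradiation of untreated cells, 1 to 3 for irradiation of VIP-treated cells, and 0 for VIP in both sorted settings and for the interaction. The 5 came without mouse 3, where only mice 1 and 2 had both cultures. With mice left out, signs changed for uncalled values: Reg1 ranged from -0.12 to 1.30 and Reg4 from -0.17 to 0.11 with VIP in non-irradiated cells, Reg3g from -0.23 to 0.10 with VIP in irradiated cells (0.08 without mouse 4), and Reg3a from -0.10 to 0.81 with irradiation of VIP-treated cells. In the interaction Reg1 ranged from -1.0 to 0.97 (-0.003 without mouse 2) and Reg3b from -0.088 to 0.80. The cause of these changes was not tested. Low counts limit Reg1 and Reg3a in the sorted cells of the irradiation experiment, with at most 18 and 27 UMIs per culture.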
